A study of Rattus norvegicus with 12 samples.

Results

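The chemokine system of the rat joint was described through the 55 genes, of 23144 listed in at least 1 of the 3 deposited gene tables, whose symbol begins with Ccl, Cxcl, Cx3cl or Xcl, or with Ccr, Cxcr, Cx3cr, Xcr or Ackr, followed by a digit. The rule used names and no measured value; it gave 33 ligands and 22 receptors. The study sequenced RNA from the joint of Rattus norvegicus in 12 libraries whose labels are sham (4), model (4) or treatment (4). By its title the series concerns knee osteoarthritis and a circum-knee acupuncture regimen named for Yi-Ping Lin. The labels name no strain, sex, age, method of making the model, time of sampling or content of the treatment, and each group is therefore called by its label. The libraries of a group were not stated to come from separate animals, so a p-value measures the spread between these libraries, which may be technical.

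Chemokines are small secreted proteins that guide the migration of cells carrying the matching receptor. Most receptors signal through heterotrimeric G proteins, whereas the atypical receptors bind chemokines and remove or transport them without that signal. CXCL12 from stromal cells holds CXCR4-bearing haematopoietic cells and neutrophils in the bone marrow, while ligands of CXCR2 draw neutrophils out of it; in an inflamed joint, inducible CC chemokines such as CCL2 recruit monocytes.

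Promoters of 4 members are shown because they belong to the pairs on which the results turn, the stromal ligand Cxcl12 with its receptor Cxcr4 and the neighbours Ccl6 and Ccl9, which differed from sham in opposite directions. RefSeq windows, each of 250 bases before and 50 bases after the annotated start on the GRCr8 build, were available for 41 of the 55 members. The Cxcl12 window lies at chr4:152060531-152060830 on the plus strand, the Cxcr4 window at chr13:42634239-42634538 on the minus strand, the Ccl6 window at chr10:68883317-68883616 on the minus strand and the Ccl9 window at chr10:68868828-68869127 on the minus strand. Capitals mark matches on either strand to TATAAA, to GGGCGG and to the NF-kB consensus, overlapping matches included.
Cxcl12: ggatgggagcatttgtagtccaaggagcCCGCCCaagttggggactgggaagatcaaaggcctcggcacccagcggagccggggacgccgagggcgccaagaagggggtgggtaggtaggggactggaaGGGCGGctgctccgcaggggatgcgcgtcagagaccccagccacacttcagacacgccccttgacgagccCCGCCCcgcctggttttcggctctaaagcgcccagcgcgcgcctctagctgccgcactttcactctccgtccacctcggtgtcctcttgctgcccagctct
Cxcr4: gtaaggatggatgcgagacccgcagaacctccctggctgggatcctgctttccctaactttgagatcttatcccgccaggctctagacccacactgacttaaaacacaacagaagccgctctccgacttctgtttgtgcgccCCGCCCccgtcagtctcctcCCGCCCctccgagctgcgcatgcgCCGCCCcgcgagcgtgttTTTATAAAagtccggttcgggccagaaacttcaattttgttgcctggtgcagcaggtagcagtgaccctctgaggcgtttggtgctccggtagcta
Ccl6: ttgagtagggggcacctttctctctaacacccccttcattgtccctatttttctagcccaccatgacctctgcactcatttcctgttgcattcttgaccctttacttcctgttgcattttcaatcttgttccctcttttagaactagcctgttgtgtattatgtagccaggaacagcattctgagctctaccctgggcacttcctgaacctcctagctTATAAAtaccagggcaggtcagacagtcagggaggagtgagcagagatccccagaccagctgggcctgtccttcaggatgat
Ccl9: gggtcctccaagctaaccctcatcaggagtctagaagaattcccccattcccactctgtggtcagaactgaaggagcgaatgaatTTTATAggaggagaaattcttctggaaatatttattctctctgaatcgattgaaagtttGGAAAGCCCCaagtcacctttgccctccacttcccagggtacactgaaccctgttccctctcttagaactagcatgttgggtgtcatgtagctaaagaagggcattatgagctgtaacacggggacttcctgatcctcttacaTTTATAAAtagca

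GGGCGG occurred 3 times in the Cxcl12 window and 3 times in the Cxcr4 window. Overlapping matches to TATAAA on opposite strands lay 46 and 44 bases before the start of Cxcr4, and another match lay 32 bases before the start of Ccl6. The Ccl9 window held 3 matches to TATAAA, 2 of them overlapping each other after the annotated start, and 1 match to the NF-kB consensus 106 bases before the start. A local alignment joined Ccl6 and Ccl9 over 139 positions, of which 102 (73.4%) were identical, and this stretch ends just past the TATAAA match of Ccl6 and at the end of the Ccl9 window. TATAAA occurred in 12 of the 41 member windows and in 14.2% of all 33469 promoter windows, GGGCGG in 10 of 41 and 33.1%, and the NF-kB consensus in 8 of 41 and 4.18%. These matches describe the letters of the windows and no more.

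Each deposited value was a gene's read count divided by a size factor of its library, from which the reads were recovered, and the libraries held 15513116 to 17218430 reads in genes. Differences were tested with limma on log2(value + 1), adjusted over all genes of a table whose mean value was at least 1, at an adjusted p of 0.05. Markers of blood cells set the treatment libraries apart from the rest. Summed neutrophil markers (10 genes) ranged from 14273 to 23716 CPM (reads scaled to the library's total) in sham, from 3907 to 13840 in model and from 7.51 to 208 in treatment, and 9 of the 10 fell in treatment against either other group. All 7 erythroid and all 6 B cell markers also fell in treatment against both groups. Summed joint markers of cartilage and synovial lining were present in every library, from 1298 CPM in a sham library to 21640 in a treatment library. Summed skeletal muscle markers ranged from 1172 to 25306 CPM in sham, from 51.1 to 615 in model and from 91.9 to 35167 in treatment, so that every sham library lay above every model library. The 6 muscle genes had a median log2 fold change of -7.43 in model against sham and limma adjusted p of at least 0.203 there, and their part in the results was not tested. The least neutrophil signal among the model libraries was in model 2. In bulk tissue, fewer cells of a type and less RNA per cell cannot be told apart.

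Across the family, 0 of 49 tested members passed in model against sham, 5 of 53 (9.43%) in treatment against model and 20 of 52 (38.5%) in treatment against sham. Of all genes tested, 0% passed in model against sham, 14.1% in treatment against model and 36.8% in treatment against sham, so the family's share was near or below that of all genes. The 20 members that changed in treatment against sham were split into 11 higher and 9 lower, beside 17.3% of all genes higher and 19.5% lower. Scaled to library totals, the split of the members was 8 higher and 10 lower, beside 2767 higher and 4525 lower of 20386 genes. In treatment against model 1 member rose and 4 fell, beside 3.6% of all genes higher and 10.5% lower. With library totals 0 members rose and 6 fell there, beside 317 higher and 2579 lower of 20361 genes. The median log2 fold change of the members tested was 0.28 in model against sham, 0.14 in treatment against model and 0.53 in treatment against sham, and that of all genes was 0.03, 0.02 and -0.01. The 3 comparisons share libraries, each group serving in 2 of them, so their values are given side by side and no overlap between them is read.

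**Figure D1:**
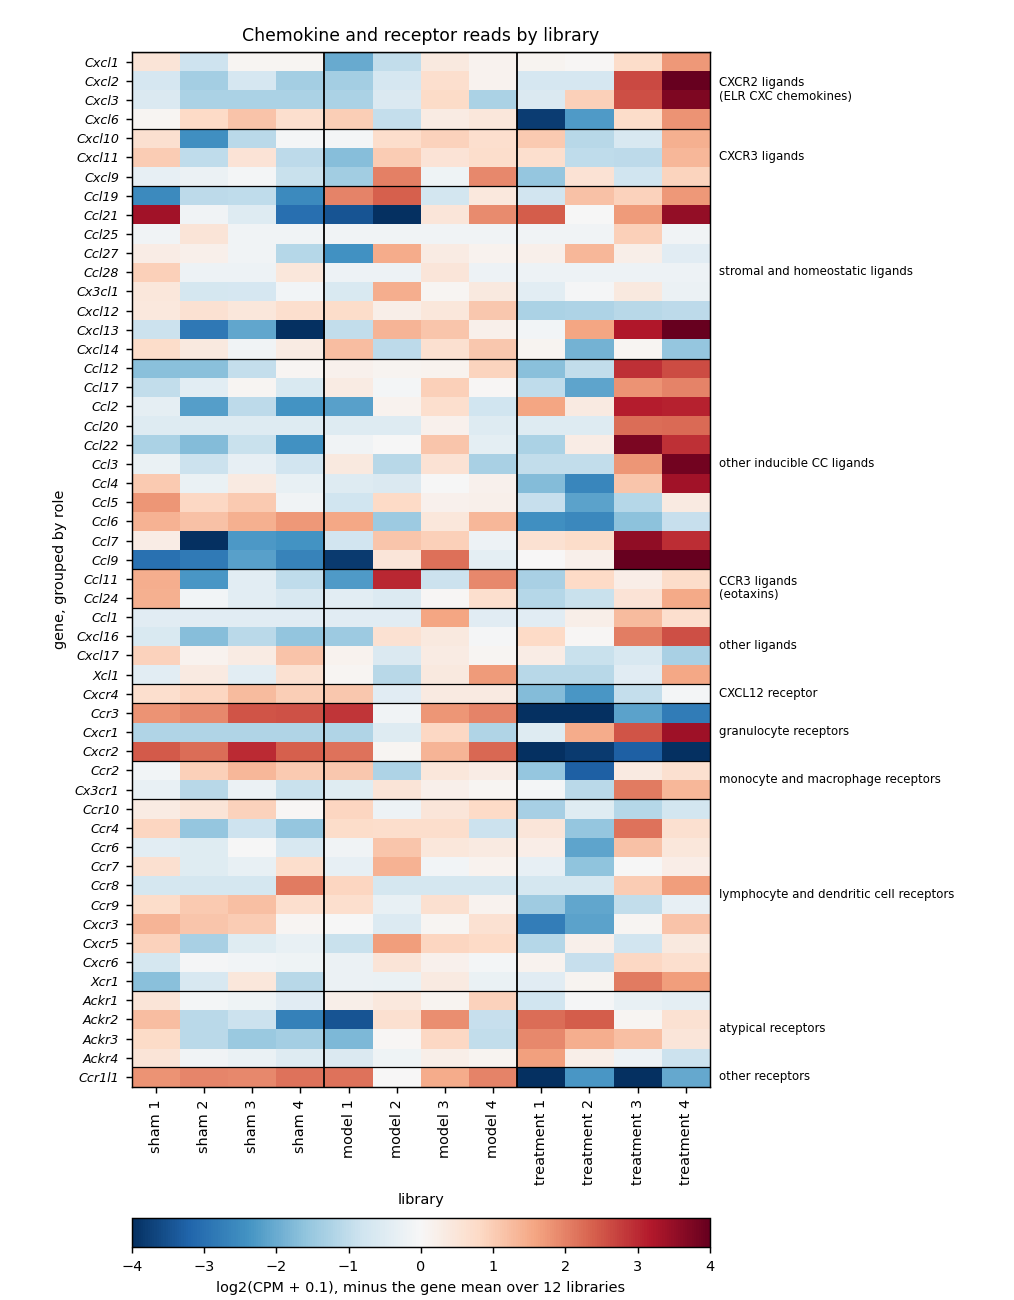
Reads of the members reported (vertical axis, grouped by role) in the 12 libraries (horizontal axis), as log2(CPM + 0.1) minus the gene's mean over the libraries, in colour. Cxcr2, Ccr3 and Ccr1l1 are low in all 4 treatment libraries, while Ccl9, Cxcl13, Ccl2 and Ccl7 are highest in treatment libraries 3 and 4.

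In treatment against sham 8 of the 30 ligands tested rose and 3 fell, and 3 of the 22 receptors tested rose and 6 fell, beside 17.3% of all genes higher and 19.5% lower. In treatment against model the counts were 1 higher and 1 lower of 31 ligands, and 0 higher and 3 lower of 22 receptors, beside 3.6% and 10.5% of all genes. The difference between ligands and receptors was not tested.

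The stromal ligand Cxcl12 (mRatBN7.2 chromosome 4, 150388325 to 150401168, plus strand) fell in treatment against both other groups. It had 14781, 17077, 14693 and 18325 reads in sham libraries 1 to 4, 17353, 12896, 14586 and 22932 in the model libraries, and 4612, 4669, 5418 and 5540 in the treatment libraries. All 4 treatment libraries lay below all 8 others and close to one another, while sham and model overlapped. The log2 fold change was -1.62 ± 0.20 (SE) against model (limma adjusted p = 0.00213) and -1.55 ± 0.14 against sham (limma adjusted p = 5.74e-05), which left 28.5% of the model mean and 30.7% of the sham mean in CPM. Model and sham differed by 0.09 ± 0.19 on the log2 scale (limma adjusted p = 0.85), and without model 4 this small difference turned to -0.041. Of 5 markers of CXCL12-rich marrow stroma, 2 fell in treatment against either other group, the leptin receptor Lepr with a log2 fold change of -2.48 ± 0.34 against model (limma adjusted p = 0.00313) and the adipokine Adipoq with -3.30 ± 0.92 (limma adjusted p = 0.046). Kitlg, Ebf3 and Foxc1 did not pass, and the median log2 fold change of the 5 was -0.53 against model and 0.047 against sham. Their summed level ranged from 233 to 530 CPM in sham, from 263 to 1038 in model and from 118 to 210 in treatment. Summed fibroblast markers ranged from 22780 to 79951 CPM in treatment and from 7740 to 23755 in sham and model. The part of either cell type in the Cxcl12 result was not tested.

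Cxcr4 (chromosome 13, 40077976 to 40081883, minus strand), the signalling receptor of CXCL12 on haematopoietic cells, fell in treatment against sham. Its reads were 2524, 2910, 3740 and 3265 in sham, 3175, 1165, 1981 and 2022 in model, and 481, 316, 856 and 1543 in treatment. The treatment libraries were all below the sham libraries, and treatment 4 exceeded model 2. Its log2 fold change was -2.07 ± 0.40 against sham (limma adjusted p = 0.0034) and -1.45 ± 0.46 against model (limma adjusted p = 0.0682), the latter short of the threshold. Against model, Cxcr4 passed with DESeq2 (adjusted p = 0.0315) and limma-voom (0.0316). Model against sham gave -0.59 ± 0.29 (limma adjusted p = 0.42).

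Ackr3 (chromosome 9, 90799686 to 90811237, plus strand), the atypical receptor that takes up CXCL12, rose in treatment against sham. It had 2289, 651, 466 and 550 reads in sham, 364, 1380, 2317 and 675 in model, and 5188, 3706, 3266 and 1952 in treatment. Sham 1 was above treatment 4, so the groups overlapped, as model 3 did with treatment 4. Ackr3 gave a log2 fold change of 2.21 ± 0.51 against sham (limma adjusted p = 0.00943) and 1.92 ± 0.56 against model (limma adjusted p = 0.0538). Against model, Ackr3 passed with DESeq2 (adjusted p = 0.0171) and limma-voom (0.0332). Thus in treatment against sham the ligand and its signalling receptor fell and the atypical receptor rose, all 3 past the test. The other 3 atypical receptors did not pass. Ackr1, which carries chemokines on erythrocytes and venular endothelium, had a log2 fold change of -0.65 ± 0.24 against model (limma adjusted p = 0.0975, and 0.0377 with limma-voom). Ackr2, a scavenger of inflammatory CC chemokines, had one of 2.35 ± 0.85 against sham (limma adjusted p = 0.0597), past the threshold with DESeq2 (0.0235) and limma-voom (0.0205). The summed endothelial markers, which belong to a tissue carrying Ackr1 and Ackr3, ranged from 364 to 731 CPM in sham, from 413 to 1622 in model and from 746 to 910 in treatment, and their part was not tested.

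**Figure D2:**
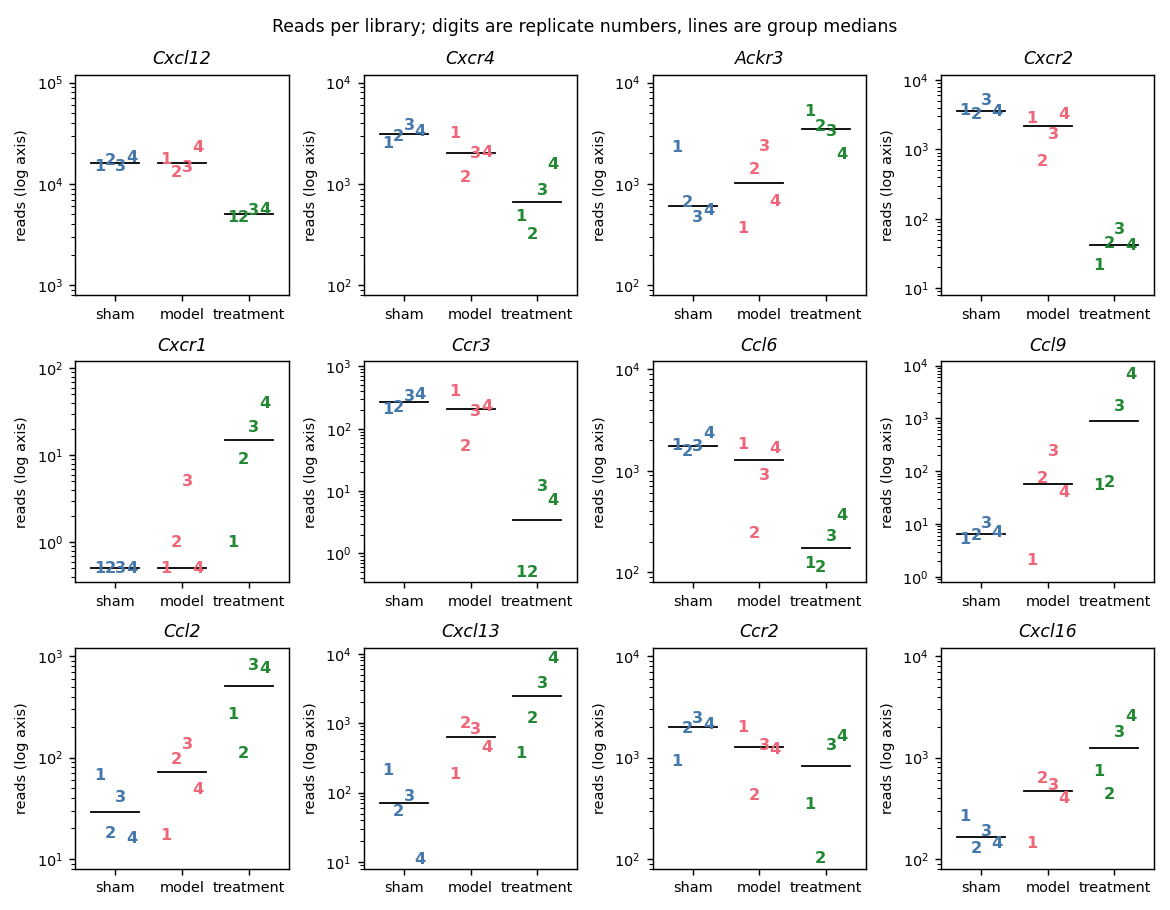
Reads of 12 members in each library (vertical log axis; 0 reads are drawn at 0.5) by group (horizontal axis). Digits are replicate numbers and lines are group medians. The 4 treatment libraries sit between 4612 and 5540 reads for Cxcl12 and between 21 and 70 for Cxcr2, below all sham and model libraries.

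Cxcr2 (chromosome 9, 75729115 to 75739425, plus strand), the receptor by which neutrophils answer ELR chemokines, fell in treatment against both other groups. Its reads were 3589, 3137, 5005 and 3567 in sham, 2792, 680, 1627 and 3207 in model, and 21, 44, 70 and 41 in treatment. Every treatment library was far below every other library, and model 2 was the lowest of the rest. The treatment mean of 2.61 CPM was 1.12% of the sham mean of 233 and 2.01% of the model mean of 130.1. The log2 fold change was -6.38 ± 0.32 against sham (limma adjusted p = 4.79e-06), -5.33 ± 0.53 against model (limma adjusted p = 0.00136) and -1.03 ± 0.44 for model against sham (limma adjusted p = 0.374). The neutrophil markers given earlier fell with it, and their part in the Cxcr2 result was not tested.

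Ccr3, the eotaxin receptor of eosinophils, and Ccr1l1, a receptor gene related to Ccr1, lie 3549 bases apart on chromosome 8 and fell together. Ccr3 had 201, 221, 324 and 351 reads in sham, 400, 51, 190 and 227 in model, and 0, 0, 12 and 7 in treatment. Ccr1l1 had 132, 152, 140 and 181 reads in sham, 164, 37, 105 and 149 in model, and 0, 6, 0 and 8 in treatment. In neither gene did a treatment library reach the lowest sham or model library. For Ccr3 the log2 fold change was -5.73 ± 1.01 against model (limma adjusted p = 0.00825) and -6.32 ± 0.85 against sham (limma adjusted p = 0.000492); without treatment 3 these were -6.41 and -7.01, and without model 2 the former was -6.32. For Ccr1l1 it was -5.08 ± 0.89 against model (limma adjusted p = 0.00828) and -5.65 ± 0.77 against sham (limma adjusted p = 0.00051). Summed markers of eosinophils, 4 genes that all fell in treatment, ranged from 2734 to 5300 CPM in sham, from 176 to 3641 in model and from 0.414 to 14.1 in treatment. Their part was not tested. The calls for Cxcl12, Cxcr2, Ccr3 and Ccr1l1 against model held under all 8 fits that left out 1 library and all 10 other settings tried.

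Cxcr1, the second receptor of ELR chemokines on human neutrophils, went the other way. No read was seen in sham, 0, 1, 5 and 0 reads in model, and 1, 9, 21 and 39 in treatment. The rise against sham passed the test (limma adjusted p = 0.00866); with 70 reads against 0 it was at least 23.0-fold, taking 3 reads over the 4 sham libraries as the floor. Cxcr1 lies 27345 bases from Cxcr2, and the authors' counting may have split reads between such related genes, which applies also to Cxcl1, Cxcl2 and Cxcl3, to Ccl2, Ccl7 and Ccl12, and to Ccl6 and Ccl9.

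The neutrophil-attracting ligands of CXCR2 within the naming rule, Cxcl1, Cxcl2, Cxcl3 and Cxcl6, were low. Ppbp lies outside that rule and is given later with the related genes. Cxcl3 had 1, 0, 0 and 0 reads in sham, 0, 1, 5 and 0 in model, and 1, 6, 23 and 52 in treatment. Treatment 1 equalled sham 1 in reads, and by a normalised value of 1.07 against 0.922 the groups did not overlap. Cxcl3 passed in treatment against sham (limma adjusted p = 0.0189), with 82 reads against 1, a ratio of 80.7 (95% exact interval 14.1 to 3226, counting error only). That call was lost without treatment 3 or sham 3 (limma adjusted p from 0.0501 to 0.0555) and with library totals (0.0792). Cxcl2, with 98 reads in treatment and 2 in sham, gave a ratio of 48.2 (95% exact interval 13 to 404, counting error only) and did not pass (limma adjusted p = 0.0847). DESeq2 called Cxcl2 higher against sham (adjusted p = 0.00203). Most of the treatment reads of Cxcl2, 26 and 70, were in treatment libraries 3 and 4. Neither Cxcl1 nor Cxcl6 passed in any comparison with limma on all libraries, while limma-voom called Cxcl1 higher in treatment against sham (adjusted p = 0.0318).

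Within a library, the log2 ratio of Cxcl12 to Cxcr2 was 2.10 ± 0.40 (SD, n = 4) in sham, 3.22 ± 0.72 in model and 6.93 ± 0.62 in treatment. No library of one group entered the range of another. The difference was 1.12 for model minus sham, 3.71 for treatment minus model and 4.83 for treatment minus sham. Each reached p = 0.0286 in a two-sided exact permutation test, the smallest that 4 against 4 libraries allow, and 0.0571 after adjustment over the 6 ratio comparisons, which did not pass. The log2 ratio of Cxcl12 to Cxcr4 was 2.39 ± 0.28 in sham, 3.07 ± 0.51 in model and 2.91 ± 0.87 in treatment. Its differences of 0.68, -0.16 and 0.52 had exact permutation p of 0.114, 0.771 and 0.286. Libraries of the 3 groups were interleaved in the ratio to Cxcr4, with model 2 and 4 and treatment 1 and 2 at the top.

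**Figure D3:**
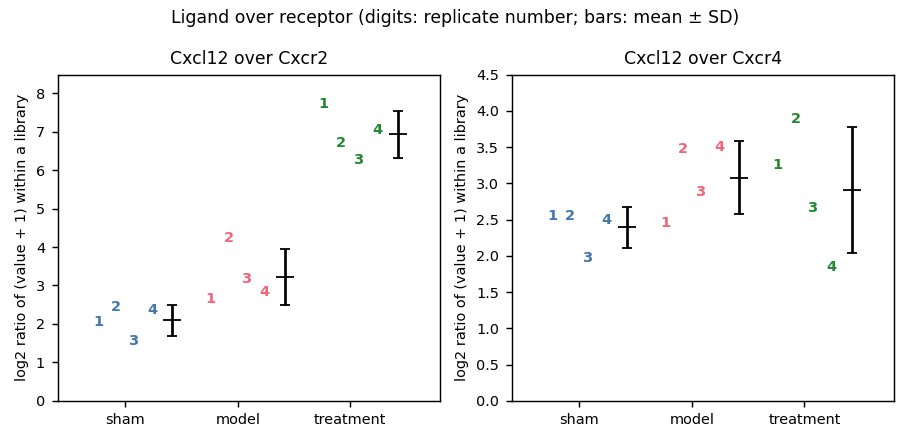
The log2 ratio of (value + 1) between Cxcl12 and a receptor within each library (vertical axis) by group (horizontal axis); digits are replicate numbers and bars are mean ± SD over 4 libraries. The ratio to Cxcr2 averages 2.10 for sham, 3.22 for model and 6.93 for treatment, whereas the ratios to Cxcr4 overlap.

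Among the inducible CC ligands, which recruit monocytes and other leukocytes, 4 of 11 rose and 2 fell in treatment against sham, beside 17.3% and 19.5% of all genes. Ccl2 (chromosome 10, 67005424 to 67007226, plus strand), a main attractant of CCR2-bearing monocytes, had 66, 18, 40 and 16 reads in sham, 17, 95, 135 and 49 in model, and 264, 111, 816 and 764 in treatment. Treatment exceeded all sham libraries, while treatment 2 was below model 3. Ccl2 gave a log2 fold change of 3.71 ± 0.67 against sham (limma adjusted p = 0.00253) and 2.75 ± 0.75 against model (limma adjusted p = 0.0437). Ccl2 was the 1 member that rose in treatment against model, and the call was lost without treatment 1, treatment 3, treatment 4, model 1 or model 4 (limma adjusted p from 0.078 to 0.119), with library totals (0.0564) and without treatment 3 and 4 together (0.246).

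Ccl7, the adjacent gene and another attractant of monocytes, also rose against sham. It had 45, 0, 6 and 6 reads in sham, 20, 82, 71 and 32 in model, and 58, 63, 468 and 306 in treatment. Its log2 fold change was 4.57 ± 1.12 (limma adjusted p = 0.0119), and no treatment library was as low as the highest sham library. Without sham 2 it was 3.66 and without sham 1 it was 5.46, both past the test. Against model it was 1.85 ± 0.74 (limma adjusted p = 0.124).

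Ccl9 and Ccl6 lie 8819 bases apart on chromosome 10 and moved in opposite directions in treatment against sham. In mice their products bind CCR1, a receptor of myeloid cells. Ccl9 had 5, 6, 10 and 7 reads in sham, 2, 73, 239 and 39 in model, and 53, 60, 1708 and 6894 in treatment. Treatment 3 and 4 held nearly all of the treatment reads, yet treatment 1 and 2 still exceeded all sham libraries. Ccl6 had 1758, 1544, 1750 and 2308 reads in sham, 1835, 242, 890 and 1663 in model, and 122, 110, 224 and 364 in treatment. All treatment libraries were below the sham range, and model 2 fell among them. Ccl9 rose by 5.95 ± 1.48 on the log2 scale (limma adjusted p = 0.0143) and Ccl6 fell by 3.19 ± 0.32 (limma adjusted p = 0.000107). Without treatment 1, 2, 3 and 4 in turn the Ccl9 value was 6.94, 6.87, 5.31 and 4.67, past the test each time. The Ccl9 call was lost with limma-voom, at 7.18 (adjusted p = 0.0903). Against model neither passed with limma, with log2 fold changes of 3.63 ± 1.79 for Ccl9 (limma adjusted p = 0.203) and -2.21 ± 0.65 for Ccl6 (limma adjusted p = 0.0538). In that comparison Ccl9 passed with DESeq2 (adjusted p = 0.0179). Ccl6 passed with edgeR (adjusted p = 0.0379), DESeq2 (0.000765) and limma-voom (0.0112).

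Ccl5, an attractant of T cells and monocytes made by T and NK cells among others, fell by 1.72 ± 0.54 on the log2 scale in treatment against sham (limma adjusted p = 0.0321). Its reads were 229, 124, 138 and 63 in sham, 36, 117, 74 and 78 in model, and 35, 14, 31 and 89 in treatment. Treatment 4 exceeded sham 4, and the call was lost in 6 of the 8 fits that left out 1 library, those without treatment 1, 2 or 3 or sham 1, 2 or 3 (limma adjusted p from 0.0589 to 0.0813). The Ccl5 call was also lost with limma-voom (adjusted p = 0.0546). Of 6 T and NK cell markers only the cytotoxic cell genes Nkg7 (-6.30 ± 0.36) and Ncr1 (-5.76 ± 0.63) were lower in treatment against sham, and Nkg7 had the highest mean level in sham. The T cell genes Cd3d (-0.30 ± 0.65), Cd3e (-0.60 ± 0.66), Cd3g (-0.73 ± 0.43) and Cd8a (-1.28 ± 0.76) did not pass, and the part of these cells was not tested. Ccl22, a ligand of CCR4 that the files list as a long noncoding RNA, rose by 3.41 ± 1.09 against sham (limma adjusted p = 0.0357). It had 2, 1, 3 and 0 reads in sham, 6, 7, 17 and 5 in model, and 2, 9, 123 and 66 in treatment, with treatment 1 inside the sham range; without treatment 1 the log2 fold change was 4.37 and without treatment 3 it was 2.59. That call was also lost in 6 of 8 such fits, those without treatment 3 or 4 or any 1 sham library (limma adjusted p from 0.0548 to 0.0936). A pseudocount of 5 (limma adjusted p = 0.0568) and library totals (0.0898) lost the Ccl22 call as well. Ccl3 and Ccl4, macrophage inflammatory proteins, overlap on opposite strands between 68452052 and 68452938 of chromosome 10, and whether the counting used strand was not stated, so reads inside the overlap may be shared between them. Neither passed by limma; edgeR and DESeq2 called Ccl3 higher against sham (adjusted p = 0.0489 and 0.00508).

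**Figure D4:**
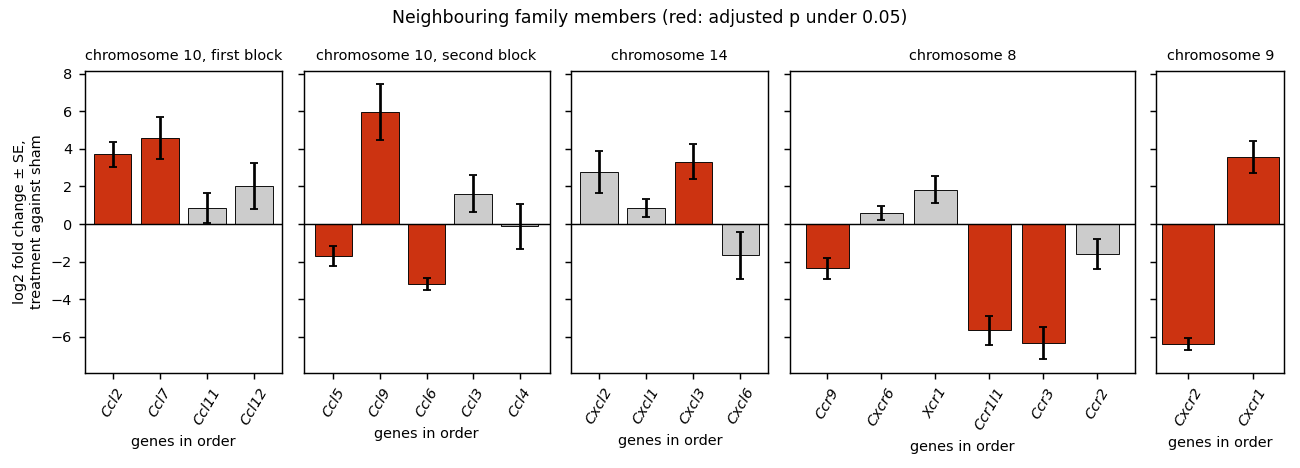
Log2 fold change ± SE of treatment against sham (vertical axis) for members in chromosomal order (horizontal axis), red where the adjusted p is under 0.05. Ccl9 and Ccl6 change in opposite directions, as do Cxcr2 and Cxcr1, while Ccr1l1 and Ccr3 are both lower and Ccl2 and Ccl7 both higher. The heights for Cxcl3 and Cxcr1 depend on the pseudocount, since sham has 1 and 0 reads.

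Cxcl13 (chromosome 14, 13608902 to 13613933, minus strand), the B cell attractant of lymphoid follicles that binds CXCR5, rose in treatment against sham. Its reads were 209, 53, 87 and 11 in sham, 183, 998, 820 and 446 in model, and 362, 1153, 3753 and 8535 in treatment. All treatment libraries were above the sham range, and all model libraries but model 1 were as well. The log2 fold change was 5.15 ± 1.13 against sham (limma adjusted p = 0.00888), 2.0 ± 0.91 against model (limma adjusted p = 0.17) and 3.17 ± 0.84 for model against sham (limma adjusted p = 0.261). Against sham it was 4.39 without sham 4, 4.47 without treatment 4, 5.75 without sham 1 and 5.93 without treatment 1, past the test each time. Summed B cell markers, 208 to 422 CPM in sham and 4.67 to 9.58 in treatment, fell, with 6 of 6 genes past the test.

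Ccl19, a ligand of CCR7 on T and dendritic cells, rose by 3.04 ± 0.74 on the log2 scale in treatment against sham (limma adjusted p = 0.0104). It had 0, 3, 3 and 0 reads in sham, 34, 48, 4 and 11 in model, and 4, 20, 17 and 31 in treatment. Its groups did not overlap in that comparison, nor in model against sham, where the log2 fold change was 3.18 ± 0.85 (limma adjusted p = 0.264). Cxcl16, the membrane-bound ligand of CXCR6, rose by 2.77 ± 0.49 (limma adjusted p = 0.00253). It had 264, 128, 187 and 143 reads in sham, 141, 624, 532 and 395 in model, and 724, 429, 1784 and 2517 in treatment, every treatment library above every sham library.

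Among the monocyte and macrophage receptors, neither Ccr2, the CCL2 receptor of monocytes, nor Cx3cr1, the fractalkine receptor, passed in any comparison with limma on all libraries. Ccr2 had 906, 1933, 2433 and 2112 reads in sham, 1988, 421, 1319 and 1205 in model, and 343, 102, 1321 and 1605 in treatment, a log2 fold change of -1.60 ± 0.81 against sham (limma adjusted p = 0.164). Treatment 3 and 4 lay within the sham range of Ccr2 and treatment 1 and 2 below it. For Cx3cr1 the value was 1.35 ± 0.60 (limma adjusted p = 0.112), past the threshold with edgeR (0.0407), DESeq2 (0.00823) and limma-voom (0.0129). Summed macrophage markers were 799, 591, 1911 and 2066 CPM in treatment libraries 1 to 4 and ranged from 643 to 1011 in sham; 3 of the 7 rose and 1 fell against sham, and their part in the CC ligand results was not tested.

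Of the 10 lymphocyte and dendritic cell receptors, 0 rose and 2 fell in treatment against sham, beside 17.3% and 19.5% of all genes. Ccr9, the gut-homing receptor, had 10, 13, 14 and 10 reads in sham, 9, 4, 9 and 6 in model, and 1, 0, 2 and 4 in treatment, a log2 fold change of -2.36 ± 0.55 against sham (limma adjusted p = 0.00818). Ccr10, a skin-homing and plasma cell receptor, had 34, 40, 51 and 29 reads in sham, 48, 23, 38 and 48 in model, and 10, 19, 12 and 16 in treatment. Its treatment libraries were below all 8 others. Ccr10 fell by 1.26 ± 0.36 on the log2 scale against sham (limma adjusted p = 0.0213), a call lost without treatment 3, sham 2 or sham 3 (limma adjusted p from 0.0534 to 0.0712), and against model it gave -1.29 ± 0.40 (limma adjusted p = 0.0627). The other 8 receptors of the group had adjusted p of at least 0.0741 in treatment against sham, the lowest being that of Xcr1, the receptor of cross-presenting dendritic cells, at 1.83 ± 0.72 (limma), which passed with DESeq2 (adjusted p = 0.0261) and limma-voom (0.0193).

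The interferon-inducible CXCR3 ligands Cxcl9, Cxcl10 and Cxcl11 did not pass in any comparison, with limma adjusted p from 0.321 to 0.985. Their largest difference was that of Cxcl10 in model against sham, 1.38 ± 0.66. The eotaxins Ccl11 and Ccl24, ligands of CCR3, did not pass either, although CCR3's own transcript fell. Ccl24 had 326, 113, 87 and 81 reads in sham, 85, 82, 121 and 191 in model, and 55, 64, 185 and 356 in treatment. Ccl11 ranged from 6 to 304 reads within the model group alone.Ccl12, another ligand of CCR2 in rodents, had 0, 0, 1 and 4 reads in sham, 4, 4, 4 and 8 in model, and 0, 1, 40 and 31 in treatment, where treatment 1 and 2 were at the sham level. Ccl17, a ligand of CCR4, had 4, 7, 10 and 6 reads in sham, 12, 9, 20 and 10 in model, and 4, 1, 40 and 45 in treatment, again with treatment 3 and 4 high and treatment 1 and 2 low. Neither passed.

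The homeostatic ligands other than Cxcl12, Cxcl13 and Ccl19 did not pass in any comparison with limma on all libraries. Ccl21 was the most variable of them, with 1246, 112, 81 and 14 reads in sham, 9, 0, 167 and 449 in model, and 664, 119, 415 and 1454 in treatment, and its groups overlapped throughout. Its log2 fold change in treatment was 2.16 ± 1.31 against sham (limma adjusted p = 0.243) and 4.07 ± 1.75 against model (limma adjusted p = 0.151). Against sham, Ccl21 passed with limma-voom (adjusted p = 0.0207) and without sham 1 (limma adjusted p = 0.0325). Cxcl14 had 2917, 2314, 1559 and 2268 reads in sham, 3898, 832, 2676 and 3696 in model, and 1899, 474, 1953 and 620 in treatment. Its log2 fold change was -0.99 ± 0.48 against sham (limma adjusted p = 0.139). Cx3cl1, the membrane-bound ligand of CX3CR1, had 91 to 409 reads and Ccl27, a skin ligand of CCR10, 1 to 38. Of the remaining lymphocyte receptors, Ccr6, the CCL20 receptor, had the smallest p in model against sham, 0.87 ± 0.32 (limma adjusted p = 0.344). Cxcl17, Xcl1, Ccl1, Ackr4, Ccr4, Ccr7, Ccr8, Cxcr5 and Cxcr6 did not pass where tested with limma on the deposited values of all libraries. In treatment against sham, Cxcr6 was called higher with limma-voom (adjusted p = 0.0372) and Cxcl17 lower with library totals (limma adjusted p = 0.0422).

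Ccl25 and Ccl28 had at most 3 reads in any group and were not compared. Ccl20, the CCR6 ligand, had 0 reads in sham, 1 in model and 10 in each of treatment 3 and 4, at least 6.56-fold higher in treatment than in sham over the floor of 3 reads, and did not pass.

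**Figure D5:**
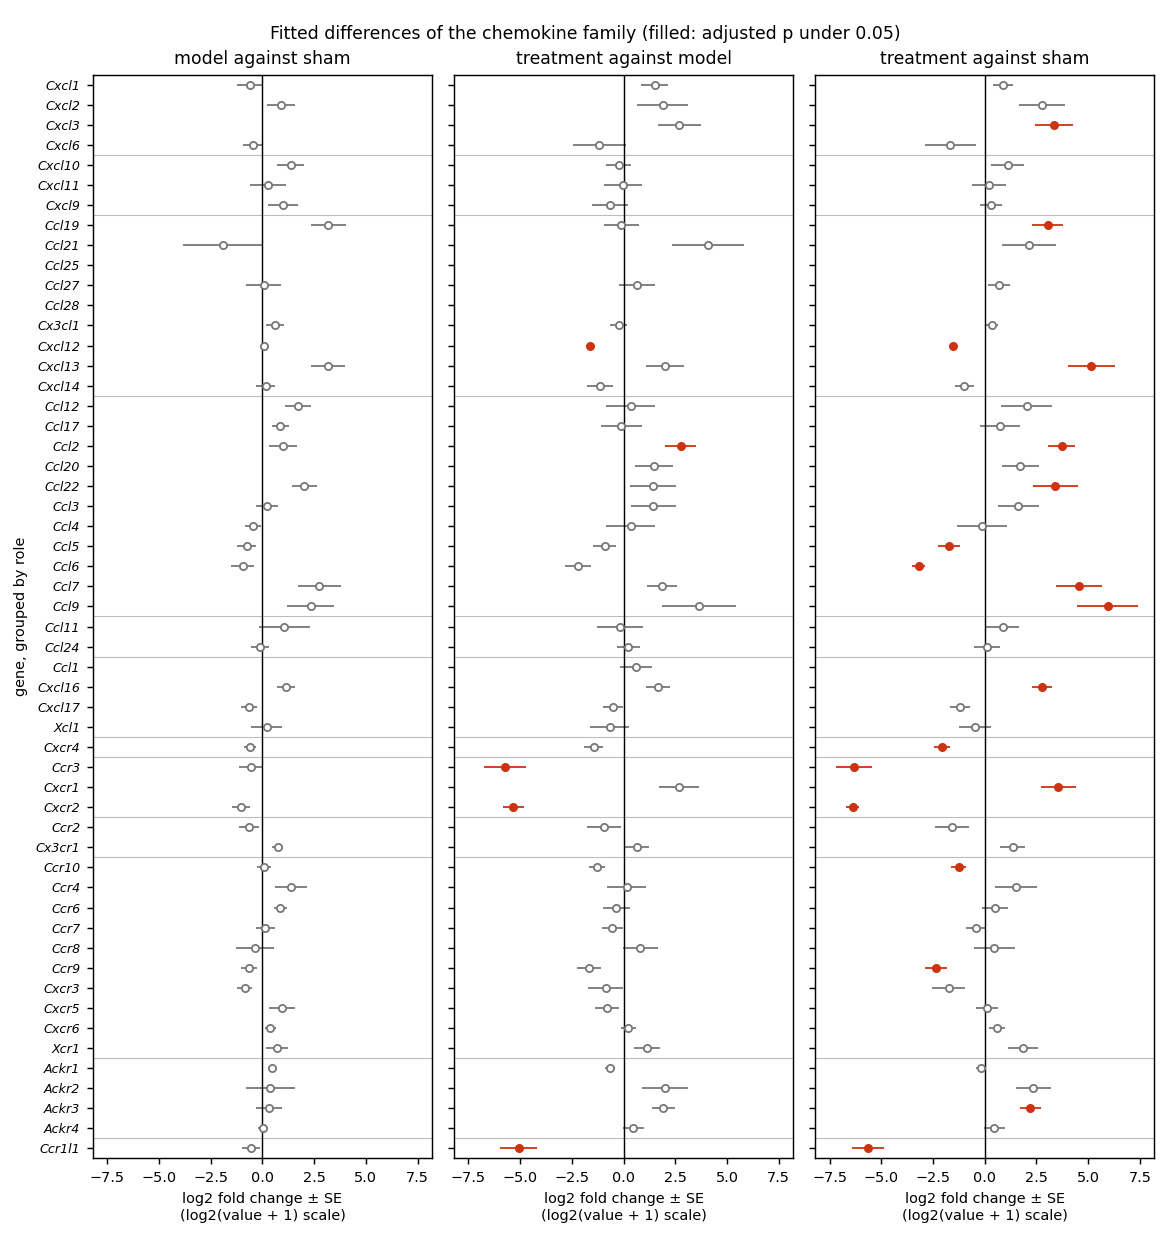
Log2 fold change ± SE (horizontal axis, log2(value + 1) scale) of each tested member reported (vertical axis, grouped by role) in the 3 comparisons, filled red where the adjusted p is under 0.05. Model against sham has no filled point, and Cxcr2, Cxcl12, Ccr3 and Ccr1l1 are filled and below 0 in both comparisons of treatment. Values of members with few reads depend on the pseudocount.

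In model against sham no member passed limma, edgeR or voom, and 10 of 49 had an unadjusted limma p under 0.05, beside 13% of all genes (2618). DESeq2 called 3 members, all higher in model: Cxcl13, Ccl9 and Ccl19. The groups did not overlap for 3 members (6.12%), Ccl19, Ccl22 and Ccl12, beside 7.85% of all genes. For Ccl12, sham 4 equalled model 1, 2 and 3 at 4 reads, and the groups separated only in the normalised values. Without model 1, limma called 2 members, Ccl9 at 3.55 (limma adjusted p = 0.0449) and Cxcl16 at 1.59 (limma adjusted p = 0.0481) on the log2 scale. Over all genes 171 passed in that fit, in place of 0. Model 1 had 2 reads of Ccl9, where the other model libraries had 73, 239 and 39, and 141 reads of Cxcl16, the lowest of its group. With all libraries Ccl22 gave 2.03 ± 0.59 (limma adjusted p = 0.286) and Cxcl16 gave 1.14 ± 0.44 (limma adjusted p = 0.355). The deposited changed-gene list of the authors for this comparison held 422 genes, of which the members were Cxcl13, Ccl9 and Ccl19, at log2 fold changes of 2.84, 3.71 and 4.08 in the authors' deposited table.

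In treatment against model the groups did not overlap for 5 members (9.43%), beside 22.2% of all genes, and in treatment against sham for 18 (34.6%), beside 36.7%. An unadjusted limma p under 0.05 was reached by 18 of 53 members against model, beside 31.4% of all genes, and by 24 of 52 against sham, beside 45.8%. Without model 2, in which the granulocyte receptors were low, 8 of 53 members passed in treatment against model in place of 5, Cxcr4, Ccl6 and Ccr10 then being lower. The count over all genes rose as well, to 4146 of 20351 in place of 2870 of 20328. The authors' deposited table lists 16 members as changed in treatment against model, 9 higher and 7 lower, and 26 in treatment against sham, 17 higher and 9 lower, at an adjusted p under 0.05 and a log2 fold change of at least 1 in size. The authors' lists held 3363 and 5704 genes in these comparisons. DESeq2 run on the recovered reads called 16 and 26 members there, beside 4845 and 8164 genes over all. Against model, members that DESeq2 and limma-voom both called, and limma did not, included Cxcl13, Ccl7, Cxcl16 and Ackr3 as higher. Cxcr4, Ccl6 and Ccr10 were called lower by both.

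Levels per length, in RPKM (reads scaled to library total and to the gene lengths of the files), placed Cxcl14 first in all 3 groups, at 355 ± 86.6 (SD, n = 4) in sham, 451 ± 231 in model and 190 ± 122 in treatment. CXCL14 is a homeostatic ligand of epithelium and fibroblasts, and its deposited gene length of 386 bases is the shortest of the family, which raises its level. In sham the next were Cxcl12 at 134 ± 10.9, Cxcr4 at 111 ± 19.8, Ccl6 at 68.8 ± 10.9 and Cxcr2 at 47.3 ± 11.3, and the ranges overlapped between Cxcl12 and Cxcr4 and between Ccl6 and Cxcr2. In treatment Cxcl14 was followed by Cxcl13 at 187 ± 200 and Ccl9 at 99.8 ± 149, whose SDs exceed their means, then Ccl21, a CCR7 ligand of lymphatic endothelium, at 41.7 ± 35.8 and Cxcl12 at 41.1 ± 3.20. No adjacent pair among these 5 differed beyond its spread. Cxcr2 had a level of 0.53 ± 0.23 in treatment, and Ccl9 moved from place 38 in sham to 18 in model and 3 in treatment.

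The median spread among the treatment libraries was larger in this family than over all genes. The genes were not matched to the members by level, and several members had few reads. The median SD of log2 values was 1.26 over the 52 members tested and 0.47 over all genes in treatment, and 0.53 and 0.36 in sham; the difference was not tested. Treatment 3 and 4 were the higher libraries for Ccl9, Cxcl13, Ccl2, Ccl7, Ccl22, Cxcl16, Cxcl3 and Cxcr1. With treatment 3 and 4 both left out, a choice made after seeing the data, 5 of 49 members rose and 12 fell against sham in place of 11 and 9. Over all genes 2609 rose and 3621 fell of 20271 tested in that fit, in place of 3524 and 3961 of 20352. Cxcl13 (limma adjusted p = 0.0613), Ccl7 (0.0991), Ccl19 (0.0874), Ccl22 (0.241), Cxcr1 (0.0797), Cxcl3 (0.143) and the fall of Ccr10 (0.0904) then missed the threshold. Ccl9, Ccl2, Cxcl16 and Ackr3 still rose, and Cxcr2, Cxcl12, Ccl6, Ccr3, Ccr1l1, Cxcr4, Ccr9 and Ccl5 still fell. Ackr2 was added to the members that rose, and Ccl4, Ccr2, Cxcl6 and Cxcr3 to those that fell.

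Of 33 genes of chemokine receptor signalling (G protein subunits, kinases, arrestins and actin regulators), 0 passed in model against sham, and 0 were higher and 5 lower in treatment against model, beside 3.6% and 10.5% of all genes. These 5 were the arrestin Arrb2 (-1.70 ± 0.38, limma adjusted p = 0.023), the receptor kinases Grk2 (-1.04 ± 0.25, 0.027) and Grk6 (-0.97 ± 0.23, 0.0256), the haematopoietic GTPase Rac2 (-2.54 ± 0.59, 0.0256) and the actin regulator Was (-1.58 ± 0.43, 0.0436). Against sham 3 were higher and 13 lower, beside 17.3% and 19.5% of all genes. The 3 higher were the broadly expressed Gnb1 (0.76 ± 0.18), Rhoa (0.65 ± 0.18) and Stat3 (0.65 ± 0.17). Among 7 related genes outside the naming rule, the platelet chemokine Ppbp fell by 6.63 ± 1.44 in treatment against model (limma adjusted p = 0.0196). Its mean normalised value was 982 in model and 12.3 in treatment. Pf4, also a platelet chemokine, did not pass (-0.94 ± 0.54, limma adjusted p = 0.267). Dpp4, a protease that cleaves CXCL12, fell by 1.64 ± 0.45 (limma adjusted p = 0.0436) in the same comparison. Mif, a cytokine that binds CXCR2 and CXCR4, rose by 1.03 ± 0.25 (limma adjusted p = 0.0294). The blood cell markers fell in the same libraries as the signalling genes, and their part was not tested.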

How the data were processed

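RNA-seq covered 12 rat joint libraries; per the submitters' processing notes, fastp and DESeq2 were used on the mRatBN7.2 build, while the aligner and counter were not stated. Each deposited signal value is a gene's read count divided by a size factor of its library, as the authors scaled it within each of 3 tables of 8 libraries. Whole reads came back for 100% of values (tolerance 0.001 reads) and were used for reads, CPM and count tests; 1 blank line of each table was not used. The deposited gene length gave levels per length, and the deposited log2 fold changes and p-values of the authors are quoted only as theirs.

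Treatment 3 reads were taken from the table of treatment against sham. Tests used limma 3.58.1 (trend, robust) on log2(value + 1) within a table, a minimum mean value of 1 per gene, Benjamini-Hochberg adjusted over all genes tested, and the script was tested on simulated data. Of 55 members, the table of model and sham listed 53 and 49 were tested; that of treatment and model listed 54 (53 tested), and that of treatment and sham listed 55 (52 tested). On the recovered reads edgeR 4.0.16 (quasi-likelihood, TMM) called 0, 2590 and 6832 genes in these comparisons and DESeq2 1.42.0 called 599, 4845 and 8164. Other alternatives were pseudocounts of 0.5 and 5, no filter, a mean of at least 10, library totals, voom weights, a replicate block and leaving out each library. Ratios used two-sided exact permutation tests over 70 assignments. Members, gene lists and tests were chosen with earlier results of these data known. Members named are Cxcl12, Cxcr2 and Cxcr4, every member past the test and the member with the smallest p of each role group in each comparison; others named were chosen after their values were seen. The values of 1 member are not reported here; it remains in the family counts and medians. Intervals and floors cover counting error only.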

Additional observations from a re-analysis of the deposited data

Results flagged for a closer look

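Among the named members, 1 of 83 groups of 4 libraries had a library that stood apart from the rest by Dixon's criterion, which chance gives in about 1 group in 20. It was Cxcl3 in sham, where sham 1 had a log2(value + 1) of 0.943 and the others 0; this is 1 read against none.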

How the results depend on the processing

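The count of members past the test in treatment against sham (15 to 23 when 1 library was left out) stayed within the range set for it. Over all genes that count was 7485, and 5924 to 7826 when 1 library was left out. The 6 differences in log2 ratio kept their direction in every setting run except Cxcl12 to Cxcr4 in treatment against model (-0.16; -0.49 without treatment 2 to 0.19 without treatment 4). Members past the test in model against sham were 0 with limma, 3 with DESeq2 and 0 to 2 with 1 library left out (2 without model 1); all genes were 0, 599 and 0 to 171 (171 without model 1, 33 without sham 3, 2 without model 4). In treatment against model members were 5 with limma, 16 with DESeq2, 14 with voom weights and 4 to 8 with 1 library left out; all genes were 2870, 4845, 5616 and 1178 to 4146, from 1178 to 1907 without treatment 1, 3 or 4 or model 1, 3 or 4, and 1182 without treatment 3 and 4. The cause was not tested. Directions turned for Cxcl12 in model against sham (0.09; -0.041 without model 4 to 0.21 without model 2) and Ccl24 in treatment against model (0.23; -0.24 without treatment 4 to 0.60 without treatment 1; -0.73 without treatment 3 and 4). With TMM, Cxcl6, Cxcl10 and Ccl17 turned in treatment against model, none past the test. The median of all genes in treatment against model was 0.02 with the authors' factors, -0.08 with library totals and 0.10 with TMM. Same-numbered libraries did not pair (correlations of deviations from -0.56 to 0.34). With a replicate block 0, 6 and 21 members passed in the 3 comparisons in place of 0, 5 and 20. Over all genes 0, 2204 and 6771 passed in place of 0, 2870 and 7485. Ccl5 (limma adjusted p = 0.0588) and Ccr10 (0.0555) lost their calls. Ccl6 against model and Ackr2, Cx3cr1 and Xcr1 against sham gained them, as these 4 also did with DESeq2 and voom. Depth limits Cxcl2, Cxcl3, Cxcr1, Ccr9 and Ccl19, some of which edgeR and voom did not test.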
